A study of Homo sapiens with 4 samples.

Results

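The S100 proteins are a family of small calcium sensors, and 8 of their genes were followed here in RNA-seq of leukemia cells after knockdown of LDB1. The genes were S100A4, S100A6, S100A8, S100A9, S100A11, S100A12, S100A13 and S100P, chosen by name among the 28412 genes of the deposited table, and 6 of the 8 had a value. They were chosen with earlier results of these data known. The expression of S100A8 and S100A12 was not analysed here. The cells were of the human line that the labels call NB4, an acute promyelocytic leukemia line. The control vector was sh-NC (2 libraries) and the knockdown vector sh-LDB1 (2 libraries). Per the study's methods, both were lentiviral pLKO.1 shRNA vectors under puromycin selection, and of the several shRNAs designed against LDB1 the sequenced one is not named in the labels. LDB1 is the adaptor protein of the transcription complex that holds LMO2, TAL1 and GATA factors, and the comparison of sh-LDB1 with sh-NC asked which transcripts change when it is reduced. Nothing in the labels says that the libraries of a group came from separate infections or cultures, so the p-values measure only the spread between these libraries, which may be technical.

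S100 proteins hold a pair of EF-hand loops. Calcium binding opens a surface through which most of them grip other proteins, and they have no enzyme activity of their own. In myeloid cells S100A8 and S100A9 form calprotectin, the abundant cytosolic protein of neutrophils and monocytes, and S100A12 is found in neutrophils. S100A4 binds the heavy chain of non-muscle myosin, S100A6 binds calcyclin-binding protein and annexins, S100A11 binds annexins, S100A13 takes part in the unconventional release of FGF1 and IL1A, and S100P binds ezrin. Several members also act outside the cell through receptors such as AGER (RAGE) and TLR4.

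The knockdown itself was checked first. LDB1 stood at 135.1 and 120.1 FPKM (fragments counted per kilobase of a gene's length and corrected for library depth) in the sh-NC libraries and at 10.2 and 9.47 FPKM in the sh-LDB1 libraries, which left 7.73% of the control mean. Its log2 difference was -3.56 ± 0.08 (SE), with an adjusted p of 6.93e-05 (limma). Whole reads recovered from the FPKM values came to between 14068121 and 16269375 per library. Across genes, log2(FPKM + 1) correlated at 0.985 between the sh-NC libraries, at 0.984 between the sh-LDB1 libraries and at 0.856 to 0.863 between groups. The label of the cells was compared with marker genes. ELANE, the elastase that defines promyelocytes, was listed at 0 FPKM except in sh-LDB1 replicate 1, where it reached 0.182 FPKM. PRTN3 and AZU1, also granulocytic markers, were low but detected in every library. They stood at 1.29 and 1.18 and at 1.94 and 1.67 FPKM in sh-NC. In sh-LDB1 they stood at 5.50 and 4.50 and at 4.83 and 3.93 FPKM. HBZ, an embryonic alpha-like globin, stood at 1543 and 1600 FPKM in sh-NC, against 58.9 and 61.3 FPKM in sh-LDB1. The ELANE and HBZ values go against a promyelocytic label, so the cells are called here only by their vectors. The paper states that its cell lines were authenticated by STR profiling (typing of repeat lengths in DNA). The report it includes gives an exact match for NB-4, from a cell sample and not from these libraries.

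The promoters of the 5 members that could be tested are shown so that the bases ahead of their start sites can be compared with how each gene moved. Each stretch holds the 120 bases before the RefSeq start site on GRCh38.p14, 5′ to 3′ on the strand of the gene. They lie at chr1:153545807-153545926, chr1:153535992-153536111, chr1:153627506-153627625 and chr1:152037005-152037124 on the minus strand and at chr4:6693758-6693877 on the plus strand. Capitals mark TATAA on the gene's strand between 40 and 21 bases before the start, or GGGCGG on either strand, and overlapping matches run together.
S100A4: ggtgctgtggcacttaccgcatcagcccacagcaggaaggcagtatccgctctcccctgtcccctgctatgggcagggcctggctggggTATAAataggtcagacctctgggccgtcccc
S100A6: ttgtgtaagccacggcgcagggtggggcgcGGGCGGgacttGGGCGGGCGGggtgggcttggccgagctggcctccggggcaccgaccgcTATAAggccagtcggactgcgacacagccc
S100A13: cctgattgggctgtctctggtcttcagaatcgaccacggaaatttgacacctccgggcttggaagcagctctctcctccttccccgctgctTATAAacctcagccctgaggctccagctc
S100P: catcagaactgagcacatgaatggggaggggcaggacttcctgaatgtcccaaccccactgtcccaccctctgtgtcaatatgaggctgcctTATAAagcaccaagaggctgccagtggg
S100A11: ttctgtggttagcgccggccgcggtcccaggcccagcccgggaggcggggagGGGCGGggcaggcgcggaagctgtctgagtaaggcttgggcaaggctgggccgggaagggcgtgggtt

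A TATAA word in that position was present in 6 of the 8 members, against 3.77% of the 35116 RefSeq promoters. For each S100 gene only 1 promoter was searched, that of the listed start nearest to the canonical one. The 35116 were not limited to 1 start per gene. S100A8 and S100A13 each had 3 listed starts. The word began at position -31 relative to the start in S100A4, -30 in S100A6, -29 in S100A13 and -28 in S100P, and S100A8 and S100A9 also held it. S100A11 and S100A12 did not hold the word there. Of all 19 S100 genes with a listed promoter, members included, 10 held it, so the word was not particular to the members. In the full window from 250 bases before to 50 after the start, GGGCGG, the word read by SP1-type factors, was present on either strand in 3 of the 8 members and in 44.95% of all promoters. The 3 members were S100A11 with 1 match, S100A6 with 3 matches beside its TATAA, and S100A9 with 1 match at position -131, outside the length printed for the other genes. GATAA, the word that GATA factors bind, was searched on both strands of the same window because GATA factors belong to the LDB1 complex. It was found in 0 of the 8 members and in 22.74% of all promoters. CAGATG, an E-box word, was found in S100A6 alone of the 8, where the match began at position -245, and in 14.7% of all promoters. These matches describe letters in the window and not binding.

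Of the 6 members with values, 5 averaged 1 FPKM or more over the 4 libraries and entered the test. In sh-LDB1, 4 of these 5 rose past the threshold, namely S100A4, S100A11, S100A13 and S100A6, and 0 fell past it. The threshold was an adjusted p below 0.05 (limma, Benjamini-Hochberg over 13300 genes) and a fold change above 2 or below 0.5. Over all genes tested, 9.5% rose past it and 10.3% fell past it. The median log2 difference of the 5 members was 2.00, against -0.08 over all genes tested. Because the members were chosen with earlier results of these data known, these contrasts describe the members and do not test them. The libraries of one group lay apart from those of the other for 5 of 5 members, which was also the case for 84.6% of all genes tested.

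S100A4, also known as metastasin, changed most. It stood at 53.1 and 53.4 FPKM in sh-NC, against 381.8 and 360.8 FPKM in sh-LDB1. Both sh-LDB1 libraries were far above both controls, and the replicates of each group lay close together. The mean went from 53.2 ± 0.238 to 371.3 ± 14.8 FPKM (SD, n = 2), a ratio of means of 6.98. On the log2(FPKM + 1) scale the difference was 2.78 ± 0.05 (SE), with an adjusted p of 6.77e-05 (limma). The values rest on 880, 807, 6269 and 5596 reads. In the annotation S100A3 lies within the span of S100A4 on the same strand, and how reads shared by both were counted is not given in the sources used here.

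S100A11, or calgizzarin, lies on chromosome 1 from 152032506 to 152047907 on the minus strand (hg38, GENCODE 44), with 3 exons in its canonical transcript, and was the most abundant member by FPKM in every library. It stood at 118.4 and 118.8 FPKM in sh-NC, against 523.0 and 497.0 FPKM in sh-LDB1, with no overlap. The ratio of the means was 4.30, and the log2 difference was 2.09 ± 0.05 (SE), with an adjusted p of 6.93e-05 (limma). The annotation holds 8 pseudogenes of S100A11, 0 of which had a value here, so a part of its reads could be of uncertain origin. The gene rested on 1303, 1191, 5698 and 5114 reads.

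S100A13, which lacks a signal peptide like the rest of the family and assists the export of FGF1, lies on chromosome 1 from 153618787 to 153631360 on the minus strand and was a low gene in the controls. It stood at 4.99 and 4.96 FPKM in sh-NC, against 21.7 and 24.2 FPKM in sh-LDB1, so that the groups were well apart. The log2 difference was 2.00 ± 0.07 (SE), with an adjusted p of 0.000113 (limma), and the ratio of the means was 4.61. S100A13 and S100A1 overlap on opposite strands, and the use of strand in counting is not given in the sources used here, so reads of the shared part cannot be told apart. S100A1 itself stood at 2.88 and 2.71 FPKM in sh-NC, against 3.996 and 4.951 FPKM in sh-LDB1.

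S100A6, or calcyclin, stood at 38.9 and 32.0 FPKM in sh-NC, against 79.1 and 74.3 FPKM in sh-LDB1. The sh-NC libraries differed from each other more than for the 3 genes above, yet both were below both sh-LDB1 libraries. Its log2 difference was 1.10 ± 0.10 (SE), with an adjusted p of 0.00104 (limma) and a ratio of means of 2.16, just inside the threshold of 2. Without sh-NC replicate 2 the log2 difference was 0.96, which is under that threshold.

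S100P was the one tested member that was lower in sh-LDB1. It is encoded on chromosome 4 from 6693878 to 6697170 on the plus strand, in 2 exons, apart from the S100 genes of chromosome 1. It stood at 10.4 and 8.21 FPKM in sh-NC, against 4.44 and 4.54 FPKM in sh-LDB1, without overlap between the groups. The log2 difference was -0.90 ± 0.12 (SE), with an adjusted p of 0.00267 (limma), so the p passed and the fold change on this scale did not. The ratio of the means was 0.483. Without sh-NC replicate 2 the log2 difference was -1.05, which passed the threshold. The length that the FPKM values imply for S100P was 1280 bases, against 471 bases in GENCODE, and the gene model behind its value may therefore be longer than the annotated one.

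S100A9, the partner of S100A8 in calprotectin, was close to nothing. Its values were 0.107 and 0 FPKM in sh-NC, against 0.325 and 0.344 FPKM in sh-LDB1. These values correspond to 1, 0, 3 and 3 reads, so no fold is given and no difference was detectable at this depth.

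**Figure D1:**
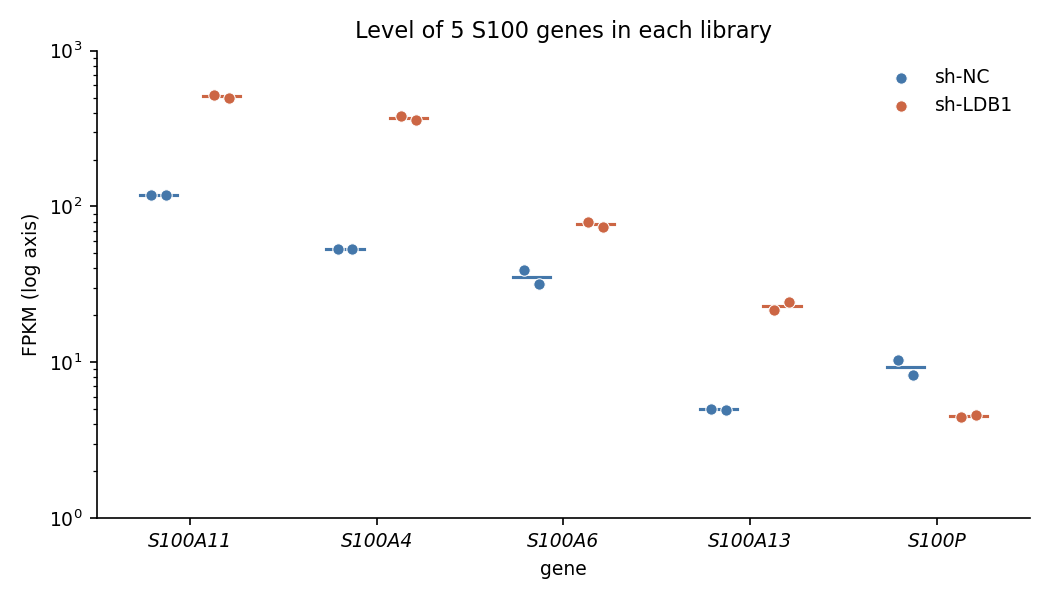
FPKM of the 5 tested members on a log axis, with 1 point per library, a short line at the mean of each group (n = 2), sh-NC in blue and sh-LDB1 in orange. S100A11, S100A4, S100A6 and S100A13 lie higher in sh-LDB1, with S100A4 at 53.1 and 53.4 against 381.8 and 360.8 FPKM, and S100P lies lower, at 4.44 and 4.54 against 10.4 and 8.21 FPKM.

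**Figure D2:**
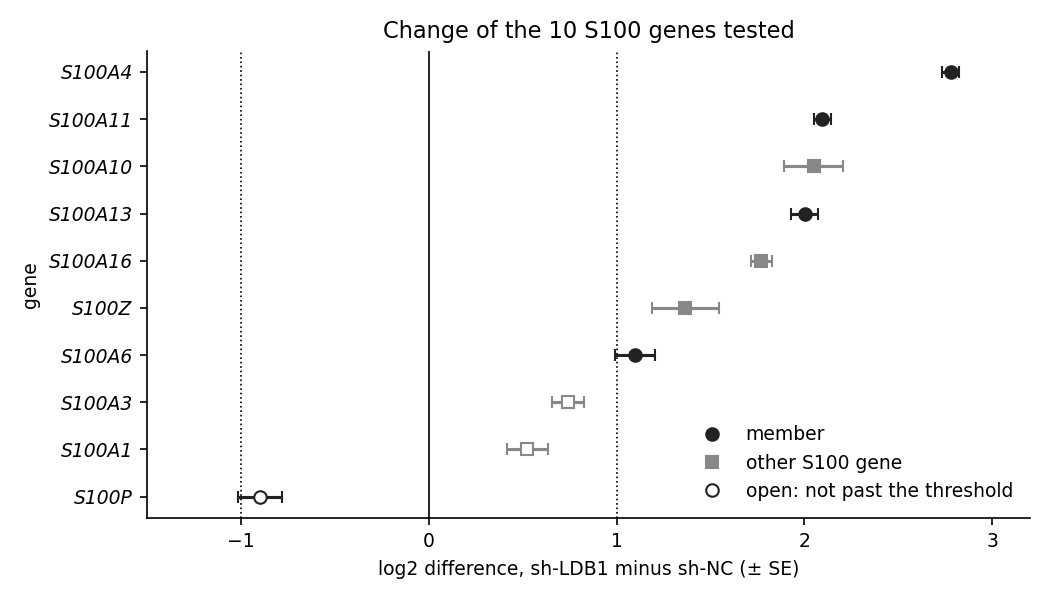
Difference of log2(FPKM + 1) between sh-LDB1 and sh-NC with its SE for the 10 S100 genes tested, with circles for members, squares for other S100 genes, filled symbols for genes past the threshold and dotted lines at fold changes of 2 and 0.5. The points run from -0.90 for S100P to 2.78 for S100A4, and 7 of the 10 are filled, all to the right.

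The order of the members by level changed with the knockdown. FPKM is a level per length, and in sh-NC the order of the means was S100A11, S100A4, S100A6, S100P, S100A13 and S100A9. In sh-LDB1, S100A13 passed S100P. S100A11 went from ranks 317 and 308 among the genes of its library to ranks 50 and 48, and S100A4 from ranks 857 and 825 to ranks 71 and 72. S100P went from ranks 4656 and 5595 to ranks 7709 and 7627.

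The order at the top depended on which length was used. The lengths implied by the FPKM values were 1025 bases for S100A4 and 680 for S100A11, against 513 and 563 bases for their canonical transcripts. Per kilobase of the canonical transcript, S100A4 stood at 741.8 ± 29.6 and S100A11 at 616.0 ± 22.2 in sh-LDB1 (SD, n = 2), the reverse of the FPKM order. In sh-NC, S100A11 stayed first on that scale, at 143.2 ± 0.309 against 106.3 ± 0.476. S100P and S100A13 in sh-NC could not be ordered on it, at 25.3 ± 4.17 and 23.1 ± 0.112, since they differed by less than the spread between the S100P libraries.

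Summed over the members, the level was 225.8 and 217.3 FPKM in sh-NC and 1010 and 961.2 FPKM in sh-LDB1. This amounted to 0.0708% and 0.0680% of all FPKM in the controls and to 0.354% and 0.342% after knockdown. S100A11 made up 52.4% and 54.7% of the sum in sh-NC, against 51.8% and 51.7% in sh-LDB1, so its share moved little while its level rose. S100A4 took 23.5% and 24.6% of the sum in sh-NC, against 37.8% and 37.5% in sh-LDB1. S100A6 took 17.2% and 14.7%, and then 7.83% and 7.73%, although its own level rose. S100P took 4.60% and 3.78%, and then 0.439% and 0.473%. The ratio of S100A4 to S100A6 was 1.36 and 1.67 in sh-NC, against 4.83 and 4.86 in sh-LDB1, and the rise was thus unequal among genes that lie within a short stretch of each other.

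**Figure D3:**
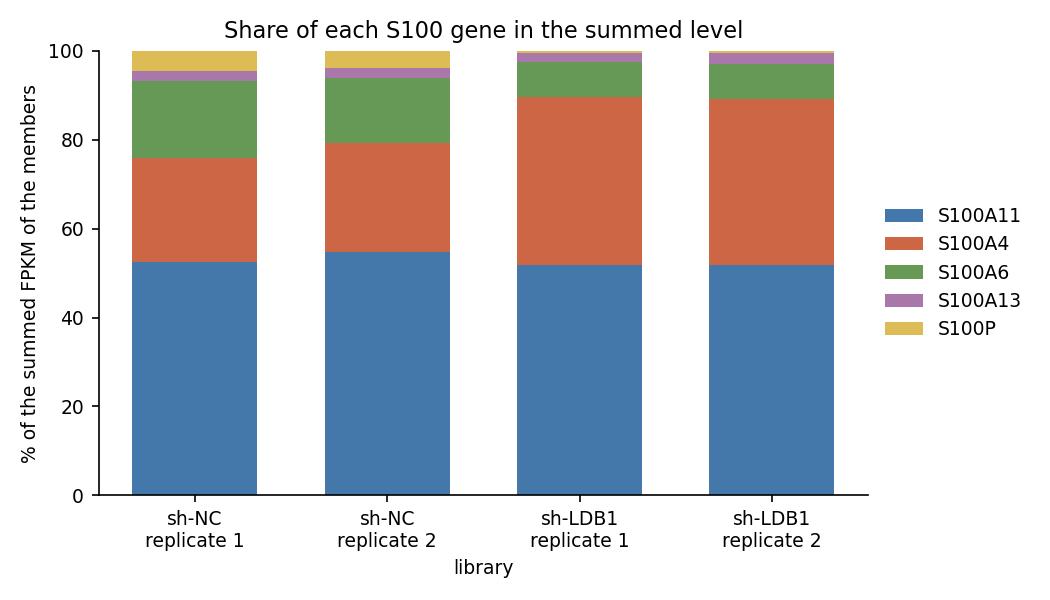
Share of each member in the summed FPKM of the members, in percent, with 1 bar per library (S100A9, at most 0.0474% of a bar, is not drawn). The S100A4 part widens from 23.5% and 24.6% in sh-NC to 37.8% and 37.5% in sh-LDB1, while the S100A6 and S100P parts narrow and the S100A11 part stays between 51.7% and 54.7%.

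The rest of the family was taken from a list of 13 other S100 genes. Of these 10 had a value and 5 were tested. Past the threshold 3 rose, against 9.5% of all genes tested, and 0 fell, against 10.3%. S100A10, the light chain that pairs with annexin A2 and has lost calcium binding, stood at 6.17 and 8.44 FPKM in sh-NC, against 35.6 and 30.6 FPKM in sh-LDB1. S100A16 stood at 4.25 and 4.15 FPKM in sh-NC, against 17.2 and 16.3 FPKM in sh-LDB1. S100Z, which can bind S100P, was at 0.0949 and 0.208 FPKM in sh-NC, against 2.27 and 1.69 FPKM in sh-LDB1. S100Z passed the filter on low values only through sh-LDB1, and when either sh-LDB1 library was left out it fell under the filter and 2 of these genes were called. All sh-LDB1 values of these 3 genes were above all sh-NC values, and the groups also lay apart for 84.6% of all genes tested. The log2 differences of S100A10 and S100A16 were 2.05 and 1.77, with adjusted p-values of 0.000565 and 9.62e-05 (limma). That of S100Z was 1.37. After that filter S100Z was bound to differ, so it is given as a level, with no support drawn from its test. S100A1 and S100A3 had log2 differences of 0.52 ± 0.11 and 0.74 ± 0.09 (SE), with adjusted p-values of 0.0129 and 0.0019 (limma), and their fold changes were under the threshold.

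Most of these genes lie together. They lie on chromosome 1 from 151982915 to 153632039 (hg38, GENCODE 44), a stretch of 1.65 Mb that runs from S100A10 to S100A1 and includes genes of the skin barrier. In it 13 S100 genes had values, 8 were tested, and 6 rose past the threshold while 0 fell. Over all genes tested the shares were 9.5% and 10.3%. The 6 were the members S100A4, S100A6, S100A11 and S100A13, chosen with earlier results known, and S100A10 and S100A16. All 6 were already counted above, so this is not a separate result. The other 10 genes of the stretch with values, among them IVL, SPRR3 and PGLYRP4, all had a mean under 1 FPKM, so 0 of them could be tested. S100A5, S100A2, S100A14, S100A7A and S100A9 in the same stretch were also under that level. S100A6 and S100A4 are near neighbours, at 153534599 to 153536244 and 153543613 to 153550136 on the minus strand, and differed in their change, with log2 differences of 1.10 and 2.78.

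**Figure D4:**
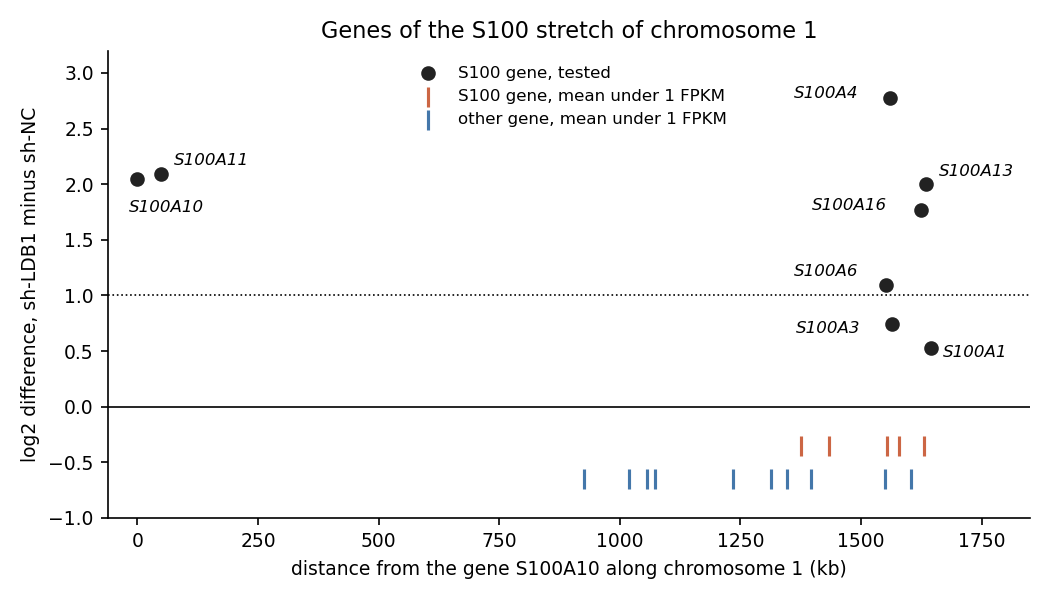
Difference of log2(FPKM + 1) between sh-LDB1 and sh-NC against the distance in kb from the start of S100A10 along chromosome 1. Points are the 8 S100 genes tested, between 0.52 and 2.78, with a dotted line at a fold change of 2, and the ticks under 0 mark where 5 S100 genes (orange) and 10 other genes (blue) with a mean under 1 FPKM lie.

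The proteins that S100 proteins bind were read from a list of 27 genes, 26 with values and 20 tested, of which 7 rose and 2 fell past the threshold. Over all genes tested the shares were 9.5% and 10.3%, so the falls among partners were near the share of all genes. The median log2 difference of the 20 was 0.64. LY96, the co-receptor that TLR4 needs, was listed at 0 FPKM in both sh-NC libraries and at 9.25 and 8.60 FPKM in sh-LDB1. Taking 3 reads per library as the floor of the controls, this was at least 27.9-fold higher. Of the 5 annexins listed, calcium-dependent membrane binders that S100 dimers bridge, 2 rose past the threshold and 0 fell. ANXA6 stood at 1.57 and 1.62 FPKM in sh-NC, against 13.7 and 13.6 FPKM in sh-LDB1, a log2 difference of 2.49. ANXA5 stood at 11.5 and 11.1 FPKM in sh-NC, against 56.6 and 57.0 FPKM in sh-LDB1, a log2 difference of 2.23. The adjusted p-values of ANXA6 and ANXA5 were 7.21e-05 and 6.77e-05 (limma). LY96 and NCF4 passed the filter on low values only through sh-LDB1, and CD36 only through sh-NC, so that these 3 of the 9 calls were bound to differ and are given as levels, with no support drawn from their tests.

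The 2 genes that fell were both counted among the receptors and their signalling partners. CD36, a scavenger receptor to which S100A8, S100A9 and S100A12 have been linked, stood at 2.92 and 3.25 FPKM in sh-NC, against 0.436 and 0.328 FPKM in sh-LDB1. DIAPH1, the formin that binds the tail of AGER, stood at 77.3 and 78.1 FPKM in sh-NC, against 30.8 and 28.6 FPKM in sh-LDB1. The log2 difference of DIAPH1 was -1.36, with an adjusted p of 0.000121 (limma), and that of CD36 was -1.56. AGER itself had a log2 difference of 0.18 ± 0.08 (SE), with an adjusted p of 0.109 (limma), and BSG, a receptor for S100A9, had one of -0.06 ± 0.06 (SE), with an adjusted p of 0.427 (limma). MYD88, the adaptor behind TLR4, and CD33 had log2 differences of 0.68 and 0.32, and both were under the fold threshold.

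Of 3 cytoskeletal partners, 2 rose past the threshold, against 9.5% of all genes tested. They were EZR (ezrin, the partner of S100P) and IQGAP1, with log2 differences of 1.05 and 1.62. EZR was just past the threshold, with a ratio of means of 2.08. The partners specific to S100A4 and S100A6, were singled out after their values were seen. MYH9, the myosin heavy chain bound by S100A4, had a log2 difference of 0.58, and CACYBP, the protein bound by S100A6, one of -0.73. Of the 6 genes of the NADPH oxidase, which calprotectin assists, 3 were tested. RAC2 rose past the threshold, with 66.4 and 73.2 FPKM in sh-NC, against 160.8 and 166.4 FPKM in sh-LDB1. NCF4 was also called, at 0 and 0.154 FPKM in sh-NC, against 2.20 and 1.73 FPKM in sh-LDB1, after passing the filter only through sh-LDB1. The 3 genes of the release route of S100A13 were all under a mean of 1 FPKM.

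Calcium sensors of other EF-hand families were read beside the S100 genes. Of 11 such genes, among them the calmodulins and calpains, 10 were tested. Past the threshold 0 rose, against 9.5% of all genes tested, and 1 fell, against 10.3%. That gene was SRI (sorcin), at 9.79 and 9.49 FPKM in sh-NC, against 4.40 and 4.10 FPKM in sh-LDB1. The median log2 difference of the 10 was -0.13, near the -0.08 of all genes. Whether S100 genes and other EF-hand genes differ as groups was not tested.

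Among 5 myeloid transcription factors listed as regulators of S100 genes, 4 were tested and 3 rose past the threshold, against 9.5% of all genes tested. SPI1 (PU.1) stood at 10.5 and 10.7 FPKM in sh-NC, against 34.3 and 35.3 FPKM in sh-LDB1. CEBPB stood at 19.9 and 20.8 FPKM in sh-NC, against 83.5 and 82.6 FPKM in sh-LDB1. CEBPD stood at 5.90 and 6.66 FPKM in sh-NC, against 33.4 and 32.7 FPKM in sh-LDB1. The sh-LDB1 libraries were above the controls for each of these genes, and the log2 differences were 1.62, 1.98 and 2.23, with adjusted p-values of 8.31e-05, 6.93e-05 and 9.45e-05 (limma). CEBPE, a factor of late granulocytes, had a log2 difference of -0.58 ± 0.23 (SE), with an adjusted p of 0.081 (limma).

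Marker genes of several cell types moved with the comparison. Granulocytic markers, 10 with values of 14 listed, summed to 11.5 and 10.5 FPKM in sh-NC and to 41.3 and 38.3 FPKM in sh-LDB1. Of the 5 tested, 3 rose past the threshold, against 9.5% of all genes tested. Most of the sh-LDB1 sum was LYZ, at 19.3 and 19.1 FPKM, and CSF3R, at 9.46 and 8.49 FPKM. The granule genes ELANE, LTF, CAMP, LCN2 and MMP9 were at 0.538 FPKM or less in every library. Of the other granule genes, PRTN3 stood at 1.29 and 1.18 FPKM in sh-NC, against 5.50 and 4.50 FPKM in sh-LDB1, past the threshold. AZU1 stood at 1.94 and 1.67 FPKM in sh-NC, against 4.83 and 3.93 FPKM in sh-LDB1, under the fold threshold on this scale. Monocytic markers, 7 with values of 8, summed to 0.447 and 0.357 FPKM and to 5.83 and 5.71 FPKM, of which ITGAM was 0.0217 and 0.0596 FPKM in sh-NC, against 4.89 and 4.94 FPKM in sh-LDB1, and CD14 was between 0.108 and 0.350 FPKM in the 4 libraries. The erythroid markers, 12 with values of 12, summed to 3773 and 3942 FPKM in sh-NC and to 325.2 and 291.0 FPKM in sh-LDB1. Of these, 11 of the 11 tested fell past the threshold, against 10.3% of all genes tested. Of the lymphoid markers 1 of 3 tested rose past the threshold, NKG7, which like ITGAM passed the filter only through sh-LDB1. Of the epithelial markers 2 of 3 rose and 1 fell. Over all genes tested the shares were 9.5% and 10.3%, and lists this short say little against them. The part of these changes in the S100 result was not tested, and in bulk RNA a change in the number of cells of a type cannot be told apart from a change in RNA per cell.

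Over the 4 libraries, the genes whose pattern was most like that of S100A4 were NES (nestin), TNFSF9 (the ligand of 4-1BB) and TNFAIP2. Likeness was the Euclidean distance between centred log2(FPKM + 1) values among the 4838 genes that averaged 10 FPKM or more, and the distances were 0.0932, 0.107 and 0.140. NES stood at 2.91 and 3.21 FPKM in sh-NC, against 26.5 and 26.6 FPKM in sh-LDB1, TNFSF9 at 19.1 and 20.1 against 132.9 and 133.0 FPKM, and TNFAIP2 at 7.57 and 8.08 against 62.7 and 64.7 FPKM. NES and TNFAIP2 were under 10 FPKM in sh-NC and passed the filter of this comparison only through sh-LDB1. With 2 groups of 2 libraries, such likeness mostly states that the size of the change was similar on the log2(FPKM + 1) scale. That scale understates changes of low genes.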

How the data were processed

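RNA-seq libraries of total RNA were made with an Illumina TruSeq kit from cells labelled NB4, 2 with sh-NC and 2 with sh-LDB1. Reads were filtered by the authors and mapped with HISAT2 2.0.5 to hg38 (per the labels), and the authors deposited 1 table of FPKM values per gene and library. The counting tool, the annotation and the use of strand are not given in the sources used here, and the table had 0 unmatched sample columns. Changed genes had been called by the authors with DESeq2, a comparison not used here.

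Whole reads were recovered from the deposited FPKM with a length fitted to each gene's values near that of GENCODE 44, and 99.7% of values came within 0.001 of a whole read. The fit favours whole numbers, so this share is partly built in, and 81.6% of the 28099 fitted lengths were within 10% of the annotated ones. The totals implied by the scaling were 0.995, 0.990, 1.07 and 1.08 times the recovered reads. Depth limits only the lowest genes; intervals from it would cover counting error only. The 13300 genes that averaged 1 FPKM or more were tested with limma 3.58.1 in R 4.3.3 on log2(FPKM + 1), with eBayes, a variance trend and no replicate block. This scale understates changes of low genes. The script was tested on simulated data. An exact permutation test of 2 against 2 cannot reach 0.05, so only the fit over all genes gives p-values.

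The members and lists were chosen with earlier results of these data known. Genes were named by rule: the 8 members, LDB1, other S100 genes, receptors and regulators of at least 1 FPKM, the 3 largest rises and falls among partners, and the 3 genes most like the member that changed most. Lists were described by counts and medians. RefSeq promoters (GRCh38.p14) were searched for 4 words. Alternatives were other pseudocounts, filters, scalings, thresholds and tests, and leaving out each library. Python 3.11.15, numpy 2.4.6 and pandas 2.3.3 were used.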

Additional observations from a re-analysis of the deposited data

How the results depend on the processing

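The count of 4 members higher was the same under the alternatives run, except that it was 3, without S100A6, with treat against a fold change of 2 and when sh-NC replicate 2 was left out. The count of members lower was 1, not 0, with a pseudocount of 0.1 or 0.01, with no fold-change threshold and with voom on recovered reads, and ranged from 0 to 1 when 1 library was left out. In each of these cases the gene was S100P, with log2 differences of -1.02, -1.04 and, with voom, -1.04. Over the alternatives, the log2 difference ranged from 2.74 to 2.95 for S100A4, from 2.06 to 2.27 for S100A11, from 1.92 to 2.20 for S100A13, from 0.96 to 1.27 for S100A6 and from -1.05 to -0.75 for S100P. With a mean of at least 5 FPKM required, 1 partner fell and 710 genes rose, since fewer genes were tested. With no fold-change threshold, 5 other S100 genes and 13 partners rose, and 3983 genes rose and 4978 fell. With treat against a fold change of 2, 4 partners rose and 1 fell, and 568 genes rose and 581 fell. When libraries were left out in turn, rises over all genes ranged from 1190 to 1360 and falls from 1336 to 1450. Other S100 genes higher then numbered 2 to 4, and a group left with 1 library was assumed to vary like the other. Voom on recovered reads called 1741 genes higher and 1923 lower. Rescaling each library to the same FPKM sum shifted the median of all genes by 0.15 on the log2 scale, and lower calls made up 37.9% of calls in place of 52.0%, with 1628 rises and 995 falls. The replicate numbers share no stated origin, and the deviations of same-numbered libraries correlated at 0.0196; with the replicate block 4 members rose and 0 fell, and 1274 genes rose and 1386 fell.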
